A study of Arabidopsis thaliana with 24 samples.

Results

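Rosettes of Arabidopsis plants hold a set of transcripts whose level stepped down with each increase in light. They were highest in darkness (D), intermediate in control light (C) and lowest in high light (HL). A transcript was counted among them when its mean over the 8 arrays of HL lay more than 1 below that of C on the log2 scale, and its mean over the 8 arrays of D more than 1 above that of C. Both genotypes entered these means with equal weight. Of the 27826 transcripts measured, 242 (0.87%) met both conditions, while the mirrored condition, rising with light, took 179. The plants were *gnat2* mutants, a T-DNA knockout line of the ecotype Col-0 for the plastid acetyltransferase GNAT2, and Col-0 wild type (WT). All were 4.5 weeks old, were raised in short days and were then kept for 2 h in D, in C (120 µmol per square metre and second) or in HL (1000 µmol per square metre and second), with 4 biological replicates per genotype and light. RNA of whole rosettes was hybridized to gene arrays, and all levels below are the deposited log2 signals.

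Because the members were chosen by their responses to HL and D, those responses are described and no test of them is read as a result. The genotype played no part in the choice, so that differences between *gnat2* and WT were tested. A signal from whole rosettes does not separate fewer cells of a type from less RNA per cell. The rosette identity showed in the mesophyll markers *RBCS1A*, *RCA* and *CA1*, whose means lay between 10.80 and 12.72 in every light, whereas the means of 4 root, 2 flower and 2 seed markers lay between 1.05 and 1.74. The targeted transcript *GNAT2* (AT1G32070) had means of 1.75, 2.03 and 2.01 in *gnat2* under D, C and HL, against 5.83, 6.06 and 5.76 in WT. RefSeq annotation of the assembly TAIR10.1 listed 241 of the 242 members, 239 of them protein-coding, and 122 carried a symbol. The member without an annotation, AT3G62422, had the signal of *BZIP53* (AT3G62420) to within 0.000977 on every array, and both count as 1 measurement.

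Leaves fix carbon in the light and live on stored and recycled carbon in the dark. When sugars run short, the kinase SnRK1 is active and switches the cell towards the breakdown of starch, protein, lipid and cell wall polymers, whereas ample sugar and trehalose 6-phosphate restrain it. Light also acts through phytochromes and other photoreceptors on growth and hormone genes. The members are described below in the order of these roles, which were assigned by hand to 90 of them after their values were known, so that a role's counts and medians describe the genes placed in it and no trait of the group. Where a pair of steps is given for a gene, the positive value is D minus C and the negative one HL minus C.

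The median level of the 242 members was 6.99 under D, 5.08 under C and 3.13 under HL. Their fall under HL relative to C ranged from -4.92 to -1.0026 with a median of -1.59, and their rise under D relative to C ranged from 1.00 to 6.65 with a median of 1.66. Between D and HL the difference ranged from 2.09 to 8.25, and it exceeded 4 in 82 members. The step in D was the larger of the 2 in 128 members and the step in HL in 114, and 31 members moved by more than 2 in both directions. All 8 D arrays lay above all 8 C arrays in 229 members, against 6.76% of all transcripts, all 8 C arrays above all 8 HL arrays in 218, against 6.6%, and both held in 207, against 1.85%. The rule used these same arrays, so that nothing is read from the difference.

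**Figure D1:**
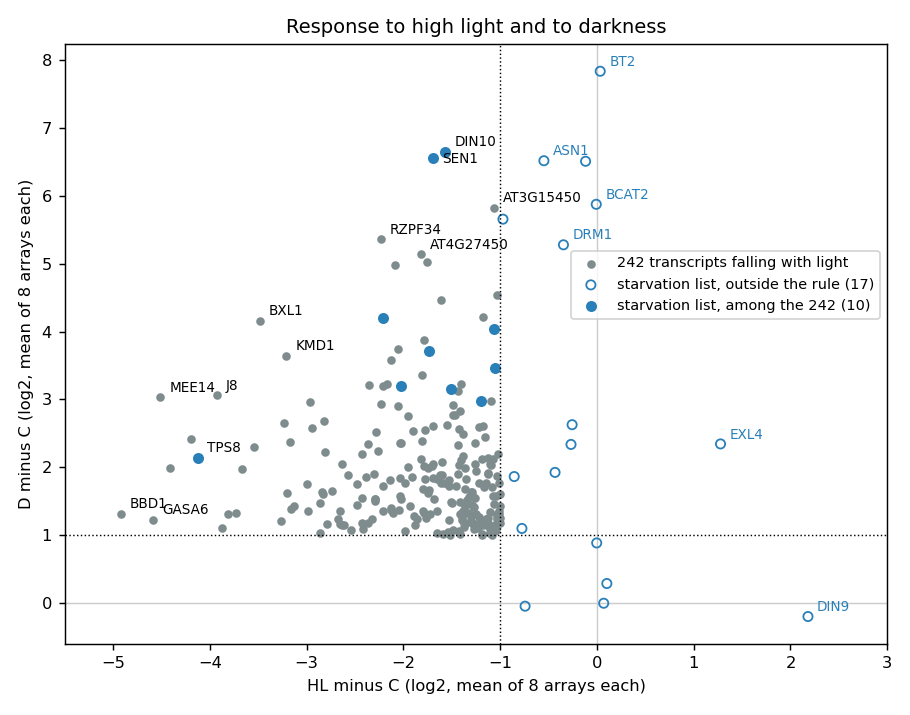
Difference HL minus C (horizontal) against D minus C (vertical), both on the log2 scale from means of 8 arrays, for the 242 transcripts falling with light (grey) and the 27 carbon starvation markers (blue, filled for the 10 that are members). Dotted lines mark the limits of -1 and 1; *SEN1* and *DIN10* stand highest among the members and *BBD1* lies farthest to the left.

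At the edge of the selection, *GUS2*, *ACLA-3* and *SOC1* lay just inside the limit for HL with -1.0026, -1.0027 and -1.0029, and AT3G13000, *ERDL6* and *ATCTH* just outside with -0.9999, -0.9987 and -0.9970. On the side of darkness, AT1G06760, *AUX1* and AT4G25940 lay just inside with 1.0043, 1.0059 and 1.0068, and *GC1*, *TPP* and *CAT2* just outside with 0.9984, 0.9964 and 0.9910. Of 890 transcripts that were lower by more than 1 under HL, 242 were higher by more than 1 under D and 83 lower. The signals carry no detection calls. Under HL, 59 members had a mean below the array median of 2.35, where a level above background is not shown, against 4 under C and 0 under D. Not each of these 59 is marked as such where it is described below.

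*SEN1* and *DIN10*, dark-inducible genes placed in the role of starvation signalling, had the widest differences between D and HL of all members. The 10 members of that role ranged from 2.14 to 8.25. *SEN1*, a senescence- and dark-induced gene also known as *DIN1*, had a lowest, median and highest signal of 9.94, 10.49 and 11.04 on the 8 arrays of D, 2.90, 3.98 and 4.95 on those of C, and 1.95, 2.26 and 2.56 on those of HL. No array of one light reached the next, and the mean under D stood 6.55 above C (standard error 0.16), which is 94-fold. *DIN10*, a dark-inducible member of the raffinose synthase family, had 9.99, 10.18 and 10.47 under D, 3.08, 3.62 and 4.12 under C and 1.37, 1.94 and 2.73 under HL. Its step of 6.65 in D was the largest of all members, while its step of -1.57 in HL was close to the median member. In both genes the HL mean lay under the array median.

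Subunits and partners of SnRK1 belonged to the set. *AKINBETA1*, a β subunit of the kinase, had 8.12, 8.77 and 9.13 under D, 3.84, 4.61 and 5.17 under C and 1.88, 2.44 and 2.72 under HL. *KING1*, a γ subunit, moved less, with means of 6.97 under D, 4.80 under C and 3.42 under HL. The 8 values of each light lay apart from those of the next in both genes. Of the 5 transcripts that RefSeq names as SnRK1 subunits, these 2 met the rule. This family was added after the values were seen, so that its share is not read as a result. Among bZIP factors of this pathway, *BZO2H3* (*BZIP63*), which SnRK1 phosphorylates, had means of 7.20, 4.00 and 1.79 under D, C and HL, and *BZIP53*, a factor acting on amino acid metabolism genes, 6.15, 5.11 and 4.01.

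The trehalose family contributed 4 class II members of the synthases, *TPS8*, *TPS9*, *TPS10* and *TPS11*, out of 21 transcripts named for trehalose. Over all 21 the medians were -0.0007 for HL minus C and 0.01 for D minus C. *TPS8* had 7.94, 8.15 and 8.53 under D, 5.75, 6.06 and 6.37 under C and 1.55, 1.85 and 2.37 under HL. *TPS8* changed by 2.14 in D and by -4.12 in HL, and *TPS9* by 3.46 in D and by -1.06 in HL, where the means of both, 1.93 and 1.75, lay below the array median. *TPS10* and *TPS11* changed by 3.15 and 3.19 in D and by -1.51 and -2.02 in HL. The HL mean of *TPS11*, 1.38, also lay below the array median, and that of *TPS10*, 2.58, above it.

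**Figure D2:**
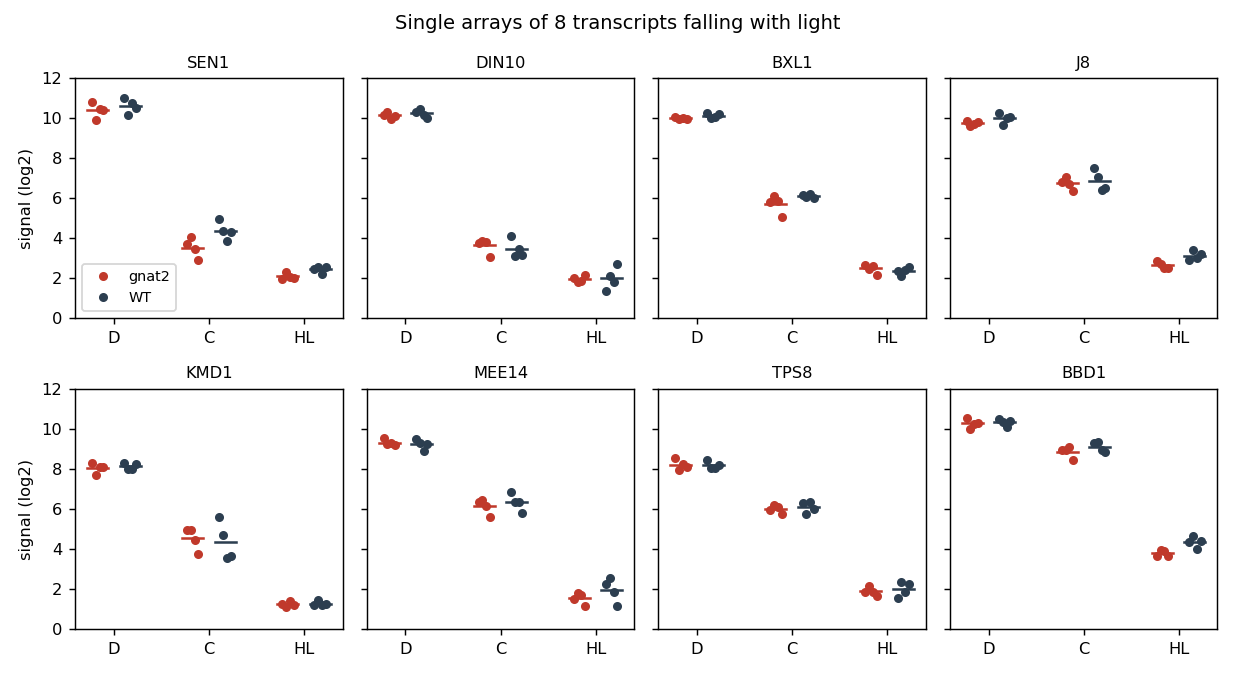
Log2 signal of 8 members on every array, by light (D, C, HL from left to right), with *gnat2* in red on the left of each pair and WT in dark blue on the right; the line is the mean of 4 arrays. *SEN1* and *DIN10* drop mainly between D and C, *TPS8* and *BBD1* mainly between C and HL, and *BXL1*, *J8*, *KMD1* and *MEE14* at both steps.

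A list of 27 carbon starvation markers, drawn from SnRK1 targets and dark-inducible genes, places these members among their pathway. Of the 27, 22 were higher under D than under C at an adjusted p under 0.05 in limma and a difference above 1 with the genotypes averaged, and 0 were lower, against 3.83% of all transcripts that were higher and 3.89% that were lower. Under HL 10 were lower and 2 higher by the same measure, against 3.2% of all that were lower and 3.64% that were higher. The 10 lower under HL are the 10 members, which the rule chose on this same contrast, so that nothing is read from these shares. The medians of the list were 3.15 for D minus C and -0.74 for HL minus C. Several of the strongest responders to darkness were absent from the 242, as HL left them near their C level. *BT2* rose by 7.83 in D with 0.03 in HL, *BCAT2* by 5.87 with -0.01 and *ERD5*, a proline dehydrogenase, by 6.51 with -0.12. Their C means of 1.78, 1.43 and 2.02 lay below the array median. *DIN9* was higher in HL, by 2.18, and *EXL4* was higher in both treatments, with 2.35 in D and 1.28 in HL.

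Enzymes that break down amino acids, lipids and purines formed a group of 11 members, with a median rise of 2.38 in D and a median fall of -1.39 in HL. *MCCA*, a subunit of methylcrotonyl-CoA carboxylase in leucine breakdown, had 7.58, 7.98 and 8.15 under D, 3.98, 4.21 and 4.41 under C and 1.83, 2.49 and 2.79 under HL. *DIN4*, a subunit of the branched-chain keto acid dehydrogenase, had means of 7.83, 4.84 and 3.64 in that order of lights, and *GDH1*, a glutamate dehydrogenase, 7.81, 4.58 and 2.41. The second subunit of the leucine carboxylase, *MCCB*, missed the rule with 1.10 in D and -0.78 in HL. *HGO*, a dioxygenase of tyrosine breakdown, rose by 2.60 and fell by 1.18. *ALN*, the allantoinase of purine breakdown, was the only member of the group to change by more than 3 in HL. It had 7.16, 7.38 and 7.68 under D, 4.69, 5.02 and 5.28 under C and 1.34, 1.81 and 2.30 under HL.

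Several members act on lipids or in the peroxisome. *ACX4*, an acyl-CoA oxidase of peroxisomal fatty acid breakdown, had 9.60, 9.83 and 9.97 under D, 8.28, 8.56 and 8.68 under C and 6.46, 6.66 and 6.78 under HL, so that all 24 arrays kept the order of the lights. *ACX2* rose by 1.27 and fell by 1.39, which made 2 members among 6 acyl-CoA oxidases. The storage lipase *SDP1* rose by 1.68 and fell by 1.37, the peroxisomal citrate synthase *CSY2* rose by 1.25 and fell by 1.15, and the cytosolic isocitrate dehydrogenase *cICDH* rose by 1.12 and fell by 1.37. The acyl hydrolase *PLA2A* spanned 6.44 to 8.05 under D, 3.68 to 5.60 under C and 1.86 to 3.37 under HL, with steps of 2.54 and -1.78.

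Sugar transporters and sugar-converting enzymes followed. *STP1*, a proton-coupled importer of hexoses at the plasma membrane, had 9.82, 10.08 and 10.29 under D, 4.52, 5.08 and 5.49 under C and 2.89, 3.19 and 3.99 under HL, a rise of 5.02 and a fall of -1.76. *ERD6*, a sugar transporter first known from dehydration, rose by 3.37 and fell by 1.81, and *TMT1*, which loads hexoses into the vacuole, moved evenly by 2.25 and -2.26. These 3 were the members among 45 transcripts named as sugar transporters, whose medians were 0.08 in D and -0.04 in HL. The cytosolic invertase *CINV1* rose by 1.31 and fell by 1.72. *UGE1*, a UDP-glucose epimerase, changed by 3.23 in D and by -1.40 in HL.

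Cell wall enzymes gave 12 members, mostly hydrolases. *BXL1*, a β-xylosidase and arabinosidase, had 9.95, 10.03 and 10.27 under D, 5.06, 6.04 and 6.20 under C and 2.13, 2.44 and 2.69 under HL. Its steps of 4.16 and -3.48 added up to a 199.6-fold difference between D and HL. *XYL4*, another β-xylosidase, rose by 4.21 but fell by only 1.18, and the 2 were among 5 transcripts named for that activity. *BGAL1*, a β-galactosidase, had 11.13, 11.26 and 11.56 under D, 7.47, 7.68 and 7.89 under C and 5.12, 5.64 and 5.96 under HL, and *BGAL10* rose by 1.68 and fell by 1.79. *PME3*, a pectin methylesterase, moved more in HL, with -2.86, than in D, with 1.47. The arabinofuranosidase *ASD1*, the wall-loosening *XTH6*, the wall acetylation genes *TBL10* and *TBL45*, the pectin methyltransferase-like *TSD2*, the arabinogalactan protein *AGP16* and the glucuronidase *GUS2* changed by -2.11 to -1.0026 in HL and rose by 1.15 to 2.77 in D.

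Protein turnover had 9 members and the deepest median change in HL of the 10 roles, -2.61, with a median rise of 1.73. *ATG8E* and *ATG8F* encode ubiquitin-like proteins that are attached to the autophagosome membrane, and were 2 of 9 *ATG8* transcripts. *ATG8E* had 6.37, 6.56 and 6.80 under D, 2.16, 2.44 and 2.91 under C and 1.24, 1.36 and 1.82 under HL, a rise of 4.04 with a fall of -1.07 that ends below the array median. *ATG8F* had 8.33, 8.72 and 8.90 under D, 7.20, 7.47 and 7.66 under C and 4.37, 4.88 and 5.23 under HL, a rise of 1.16 with a fall of -2.61. The cysteine protease *RD19* and the carboxypeptidase-like *SCPL13* changed by -2.83 and -3.27 in HL, and the ubiquitin-conjugating enzyme *UBC5* by -2.21.

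Ubiquitin ligase genes made up 4 of them. The KISS ME DEADLY proteins are kelch F-box proteins that mark type-B cytokinin response regulators and phenylalanine ammonia-lyase for degradation. *KMD1* had 7.71, 8.09 and 8.32 under D, 3.57, 4.57 and 5.59 under C and 1.08, 1.21 and 1.43 under HL. *KMD4* had 8.73, 9.07 and 9.28 under D, 7.57, 7.71 and 7.92 under C and 4.39, 4.77 and 4.96 under HL. All 4 family members were higher under D by more than 1, whereas *KMD2* and *KMD3* changed by only -0.12 and -0.70 in HL and stayed outside. The RING ligase *RZPF34* had 8.79, 8.99 and 9.22 under D, 3.02, 3.38 and 4.46 under C and 1.18, 1.32 and 1.73 under HL. *MIEL1*, the ligase of the MYB30 factor, moved by 1.81 and -1.53.

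Transcription factors, 23 members including 2 bZIP genes named above, had medians of 1.44 in D and -1.88 in HL. The step in HL was the larger in 14 of the 23, beside 114 of all 242 members. *BBX14*, a B-box protein, had 7.77, 8.23 and 8.55 under D, 5.16, 5.57 and 5.95 under C and 1.91, 2.34 and 2.79 under HL. *BBX17* was the other of 2 members among 31 B-box transcripts, and its values of C and D came close to each other, with 3.67 as the highest of C and 3.73 as the lowest of D. *HBI1*, a growth-promoting bHLH factor, moved far more in HL, by -3.87, than in D, by 1.10.

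*DEWAX*, a repressor of wax synthesis genes, had 6.96, 7.40 and 7.59 under D, 3.66, 4.54 and 4.91 under C and 0.89, 1.34 and 2.36 under HL. Its steps were 2.96 and -2.96 as measured, the second ending below the array median. *BZIP61* moved by 2.58 and -2.94, *MYBL2*, a repressor of anthocyanin synthesis, by 1.62 and -3.20, and the trihelix factors *GTL1* and *GT2* by 1.17 and -2.66 and by 1.89 and -1.62. The CCAAT-binding subunits *NF-YC1* and *NF-YC4* changed by -2.48 and -1.05 in HL. The least orderly factors were *MYB51*, a regulator of indole glucosinolates, and *NAP*, a NAC factor of leaf senescence. *MYB51* spanned 2.97 to 4.73 under D, 1.08 to 4.28 under C and 0.94 to 2.10 under HL, so that neighbouring lights overlapped, and *NAP* spanned 4.22 to 6.83, 3.51 to 5.05 and 1.42 to 3.06.

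The hormone and growth genes had rises of up to 1.63 in D, beside falls that reached -4.58 in HL. *GASA6*, a gibberellin-stimulated peptide, had 7.41, 8.47 and 9.09 under D, 6.52, 7.13 and 8.04 under C and 2.13, 2.60 and 3.18 under HL. The D and C arrays of *GASA6* overlapped, while its HL arrays lay far below, 24-fold under C on average. *AMI1*, an amidase that releases auxin, fell by 3.13 and rose by 1.43. *CPD*, a cytochrome P450 of brassinosteroid synthesis, was the only member among 241 transcripts named as cytochromes P450 and moved by 1.53 and -1.69. The auxin importer *AUX1*, the response factor *ARF19*, the repressor *IAA7*, the ethylene receptor *ERS1* and the cell elongation gene *LNG2* changed by -1.52, -1.88, -1.02, -1.30 and -2.42 in HL.

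Photoreceptor and light signalling genes were few. *PHYA*, the far-red photoreceptor that accumulates in darkness, had 6.63, 7.06 and 7.30 under D, 4.33, 4.66 and 5.10 under C and 2.89, 3.27 and 3.58 under HL. *PLPB*, a PAS and LOV domain protein, rose by 2.59 and fell by 1.22, and *RFI2*, a RING protein of red and far-red signalling, rose by 1.71 and fell by 1.09. Of 16 shade and PIF markers, *HFR1* alone met the rule. In that list 7 were lower under HL and 2 higher under D by the measure given above for starvation markers. *IAA29*, *PIF4* and *HAT2* changed by -3.94, -2.51 and -1.93 in HL but only by 0.82, 0.12 and 0.75 in D. None of 12 listed clock genes and none of 10 listed gibberellin turnover genes were members. By name, *GRP7* was 1 member among 21 circadian transcripts and *GASA6* 1 among 24 gibberellin transcripts. Among clock genes *CCA1* took the opposite course, with -1.09 in D and 1.45 in HL, and *PRR5* and *LUX* were higher in D by 2.36 and 1.55 with -0.43 and 0.17 in HL.

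**Figure D3:**
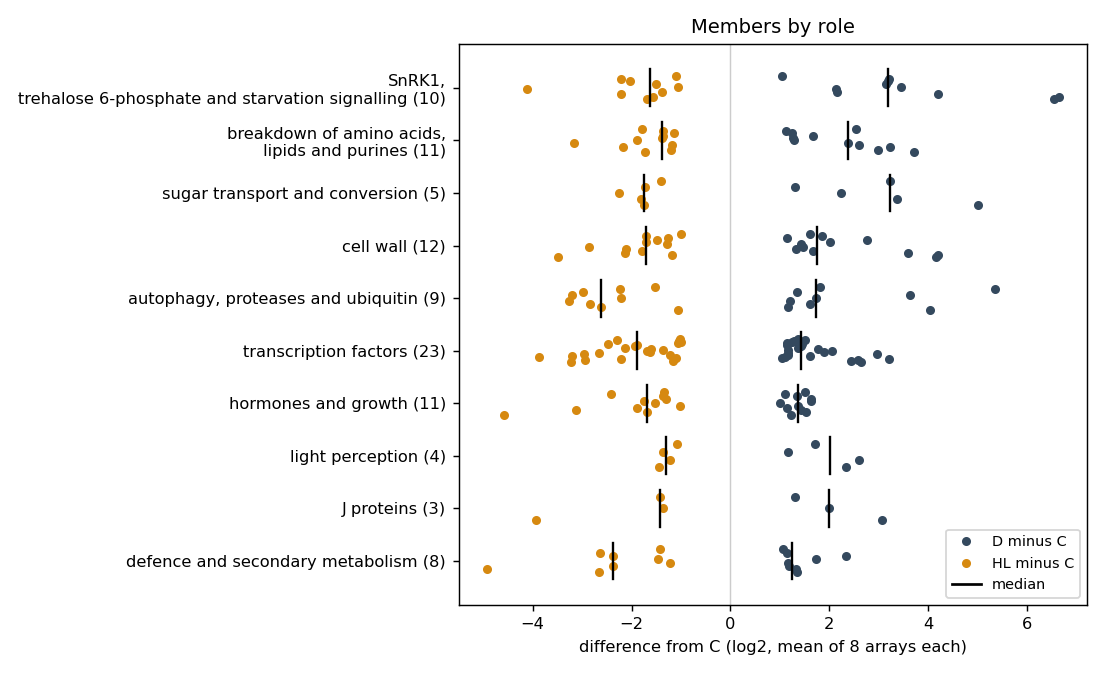
Difference from C on the log2 scale under D (dark blue, right) and under HL (orange, left) for members by role, 1 point per member and light from means of 8 arrays, black bars for medians, numbers of members in parentheses and some members in more than 1 role. *DIN10*, a starvation gene, lies farthest to the right at 6.65, and *BBD1*, a defence gene, farthest to the left at -4.92.

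Plastid J proteins and defence genes completed the described roles. The chaperone partners *J8*, *J11* and *J20* were 3 of 15 transcripts named as type C J proteins. *J8* had 9.63, 9.85 and 10.29 under D, 6.38, 6.77 and 7.52 under C and 2.49, 2.89 and 3.39 under HL, a difference of 127-fold between D and HL. *J11* moved by 1.99 and -1.36 and *J20*, which delivers a plastid isoprenoid enzyme for refolding or degradation, by 1.31 and -1.42. *BBD1*, a nuclease of basal defence, had 9.99, 10.33 and 10.57 under D, 8.47, 8.95 and 9.33 under C and 3.63, 3.98 and 4.66 under HL. Its fall of -4.92, or 30.2-fold, was the largest of all members. The larger step was that in HL in 7 of the 8 genes placed under defence and secondary metabolism, beside 114 of all 242 members. Among the 7 were *PR4* with 1.36 and -2.65 and the monolignol glucosyltransferase *UGT72E1* with 1.16 and -2.63. *UGT74F2*, a salicylic acid glucosyltransferase, moved by 2.34 and -2.37.

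Some of the widest members were given no role here. *MEE14* had 8.89, 9.26 and 9.57 under D, 5.62, 6.34 and 6.86 under C and 1.15, 1.74 and 2.54 under HL, which placed it among the widest in both steps. AT3G62550 moved by 2.42 and -4.19, AT5G44020 by 2.31 and -3.55, AT3G06070 by 2.68 and -2.83, AT5G40450 by 3.21 and -2.36 and AT2G30930 by 2.52 and -2.28. AT3G15450, AT4G27450 and AT1G15125 belonged to the 10 members with the widest difference between D and HL, with rises of 5.82, 5.14 and 4.97. The C arrays of AT1G15125 were scattered, from 2.43 to 6.08 with a median of 3.57.

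Several members are chromosomal neighbours. In the RefSeq order of protein-coding genes, 11 pairs of members had at most 2 genes between them, and 5 pairs had 0. No count for other genes was made, so that nothing beyond the positions is read from this. *SEN1* lies next to *STY17* on chromosome 4, with AT4G35750 close by, and their rises in D were 6.55, 1.35 and 1.77 beside falls of -1.69, -1.66 and -1.98. AT3G06070 lies next to *TBL10*, *ATG8E* next to AT2G45180, *UGE1* next to AT1G12790 and *KMD1* next to *ATXRCC1*. Within the last pair the steps differed widely, 3.64 and -3.21 for *KMD1* against 1.08 and -1.04 for *ATXRCC1*.

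The order of the lights was also read within each genotype. All 242 members were lower in HL and higher in D than in C in *gnat2* and also in WT, taken by the means of 4 arrays. Both genotypes entered the rule, so that the choice favoured this order and nothing is read from it. To read the responses on arrays that had no part in a choice, the same limits were applied to the arrays of 1 genotype and read in the other. The *gnat2* arrays chose 264 transcripts, and in WT all 264 had both steps in the same direction and 184 had both past the limits, with medians of -1.52 for HL minus C and 1.63 for D minus C, against -1.50 and 1.63 on the *gnat2* arrays that chose them. The WT arrays chose 224 transcripts, of which all 224 kept both directions in *gnat2*, with medians of -1.68 and 1.80 in *gnat2*, against -1.66 and 1.71 in WT. The 184 shared transcripts were 69.7% of the first list and 82.1% of the second. The share of all 27826 transcripts with both steps in these directions was not counted. The genotypes were grown and treated side by side, so that neither is an independent experiment, and these counts are a description.

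Genotype differences among the members were few in any single light. Under D 4 members (1.65%) differed between *gnat2* and WT at an adjusted p under 0.05 in limma, against 3.92% of all transcripts. Under C 3 members (1.24%) differed, against 1.3%, and under HL 7 members (2.89%), against 1.92%. The share lay below that of all transcripts under D, near it under C and above it under HL, and nothing about the members as a set is read from them. Under D, 3 were lower and 1 higher in *gnat2*, against 1.89% and 2.03% of all transcripts. All 3 under C were lower, where 0.589% of all transcripts were lower and 0.708% higher. All 7 under HL were lower, where 0.981% of all transcripts were lower and 0.934% higher. An unadjusted p under 0.05 was reached by 39 members under D, 37 under C and 52 under HL, against 18.8%, 15.6% and 14.9% of all transcripts. Under HL 164 members (67.8%) had a lower mean in *gnat2* than in WT, against 51.8% of all transcripts, with medians of the difference of -0.13 and -0.01. Under D and C the corresponding shares of members were 48.8% and 57.4%, against 52.6% and 51.9% of all transcripts. The members vary together between arrays, as given below, and are not independent. The array medians over the members were 2.94 to 3.13 on the 4 *gnat2* arrays of HL, against 3.18 to 3.30 on the 4 WT arrays.

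Under HL, *MIEL1* had 4.95, 5.09, 4.76 and 4.86 in *gnat2*, against 5.52, 5.67, 5.44 and 5.27 in WT, a difference of -0.56 (standard error 0.12, adjusted p = 0.0142). The genotypes did not overlap. The difference was -0.48 under C (adjusted p = 0.0406) and -0.38 under D (adjusted p = 0.0661), so that this ligase gene was lower in *gnat2* in the same sense in every light. *CIPK21*, a calcium-regulated protein kinase, had 2.83, 2.53, 2.66 and 2.71 in *gnat2* under HL, against 3.16, 3.65, 3.70 and 3.44 in WT (difference -0.80, standard error 0.18, adjusted p = 0.0257). *AHL9*, an AT-hook DNA-binding protein, differed by -0.60 (adjusted p = 0.0256), *PATL1*, a membrane-trafficking patellin, by -0.62 (adjusted p = 0.0293) and *BGAL1* by -0.45 (adjusted p = 0.0483). AT5G08520 and AT4G01330 differed by -0.47 (adjusted p = 0.0464) and -0.65 (adjusted p = 0.0472). Without replicate 1 of every group all 7 calls under HL were lost. Leaving out single arrays of HL, taken by itself, also ended most of these calls. *MIEL1* was lost only without *gnat2* HL replicate 3 (adjusted p = 0.0574), *CIPK21* without *gnat2* replicate 2, 3 or 4 or WT replicate 2 or 3 (up to 0.0751), *PATL1* without *gnat2* replicate 1, 3 or 4 or WT replicate 1 or 2 (up to 0.109) and *AHL9* without *gnat2* replicate 1, 2 or 4 or WT replicate 1 or 2 (up to 0.0828). *BGAL1* was lost on leaving out any array other than *gnat2* replicate 2 (up to 0.169), AT5G08520 any other than WT replicate 4 (up to 0.156), and AT4G01330 whichever array was left out (0.054 to 0.152).

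**Figure D4:**
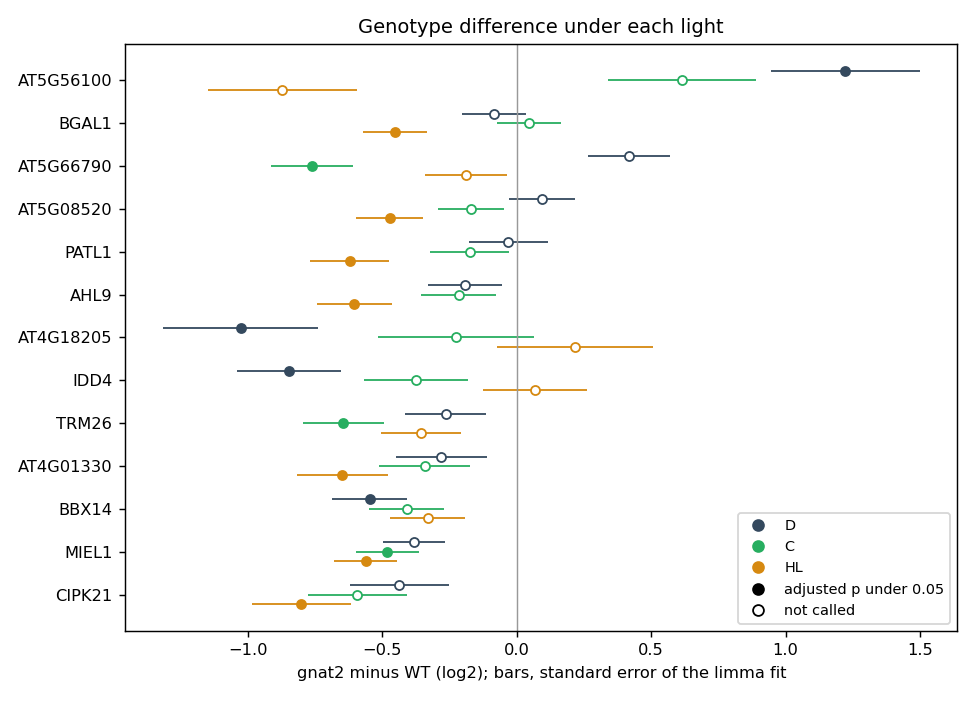
Difference *gnat2* minus WT on the log2 scale under D (dark blue), C (green) and HL (orange) for the 13 members called in at least 1 light, with bars of 1 standard error from limma and filled points for an adjusted p under 0.05. *MIEL1*, *CIPK21* and *BBX14* lie left of 0 in every light, and AT5G56100 lies right of 0 under D and C and left of it under HL.

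Under D, *BBX14* had 8.00, 7.77, 8.06 and 7.96 in *gnat2*, against 8.49, 8.54, 8.40 and 8.55 in WT, a difference of -0.55 (standard error 0.14, adjusted p = 0.0277). *IDD4*, a zinc-finger factor, had 6.15, 5.89, 5.65 and 5.75 in *gnat2*, against 7.09, 6.40, 6.66 and 6.67 in WT (difference -0.85, standard error 0.19, adjusted p = 0.0147). AT4G18205 differed by -1.03 (adjusted p = 0.0447), and its WT D replicate 1 stood at 6.34 beside 5.54 to 5.57 on the other 3. AT5G56100 was the only one of the 4 that was higher, with 5.63, 4.64, 5.79 and 6.17 in *gnat2*, against 4.64, 3.49, 4.41 and 4.80 in WT (difference 1.22, standard error 0.28, adjusted p = 0.0141). In AT5G56100 the lowest *gnat2* array lay below the highest WT array, whereas the genotypes did not overlap in the other 3. *IDD4* lost its call without *gnat2* D replicate 3 (adjusted p = 0.0514), AT5G56100 without *gnat2* D replicate 4 (0.0607), *BBX14* without *gnat2* replicate 1, 2 or 4 or WT replicate 4 (up to 0.0771), and AT4G18205 on leaving out any array other than WT replicate 2 (up to 0.131).

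Under C, AT5G66790 had 3.19, 2.90, 3.31 and 2.97 in *gnat2*, against 3.99, 4.08, 3.64 and 3.70 in WT, a difference of -0.76 (standard error 0.15, adjusted p = 0.0143). *TRM26*, a gene of the TON1 recruiting motif family, had 3.42, 3.48, 3.32 and 3.14 in *gnat2*, against 3.99, 3.75, 4.36 and 3.85 in WT (difference -0.64, standard error 0.15, adjusted p = 0.0323). No *gnat2* array reached a WT array in either gene. AT5G66790 lost its call without *gnat2* C replicate 2 or 4 or WT C replicate 2 (adjusted p up to 0.0594), *TRM26* on leaving out any other than WT replicate 2 (up to 0.1), and *MIEL1* any other than *gnat2* replicate 1 and WT replicate 3 (up to 0.11).

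Averaged over the 3 lights, 29 members (12%) differed between *gnat2* and WT, against 14.7% of all transcripts. Of these, 21 were lower and 8 higher in *gnat2*, against 7.92% and 6.82% of all transcripts, and 65 members had an unadjusted p under 0.05, against 29.3%. The differences were small. *MIEL1* had the smallest p, with a difference of -0.47 (standard error 0.07, adjusted p = 7.53e-05 in limma), ahead of *CIPK21* with -0.61, *BBX14* with -0.43 and *TRM26* with -0.42. *HFR1*, an atypical bHLH factor of phytochrome signalling, had the largest, -0.85 (standard error 0.21, adjusted p = 0.00963), and *GASA6* and *SEN1* were lower by -0.57 and -0.47. Higher in *gnat2* were AT4G17245 by 0.63, AT1G10020 by 0.60, *CSY2* by 0.45, *DEAR2*, a repressor with an EAR motif, by 0.43, the aquaporin *PIP1;5* by 0.30, *LecRK-S.1* by 0.32, the kinase *STY46* by 0.26 and AT5G24490 by 0.27. The other 14 lower ones were *IDD4*, *PATL1*, *AHL9*, AT4G01330, the peptide transporter *OPT4*, *XTH6*, *XYL4*, *J20*, *BBD1*, *CCL*, *ENP*, AT2G15960, AT2G45180 and AT3G62550, between -0.42 and -0.25. No single array ended the call in 20 of the 29. The calls of *LecRK-S.1*, *PIP1;5*, *PATL1*, *BBD1*, *CCL*, *ENP*, *XYL4*, AT2G15960 and AT3G62550 were each lost for 7 to 18 of the 24 arrays left out in turn (adjusted p up to 0.0926). With replicate 1 of every group left out, 12 remained called, and *HFR1* and *SEN1* were among those lost (adjusted p = 0.0815 and 0.077).

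The size of the light responses differed between the genotypes in few members. For HL minus C, 0 members were called in limma at an adjusted p under 0.05, against 0.0108% of all transcripts, and 20 had an unadjusted p under 0.05, against 6.18%. An unmoderated test of the same model also called 0. For D minus C 1 member (0.413%) was called, against 0.0288% of all transcripts (0.018% higher and 0.0108% lower in *gnat2*), and 14 had an unadjusted p under 0.05, against 7.53%. AT5G66790 rose in D by 1.18 more in *gnat2* than in WT (standard error 0.22, adjusted p = 0.0464), with levels under D of 5.17, 4.60, 4.96 and 4.90 in *gnat2*, against 4.71, 4.53, 4.33 and 4.40 in WT, beside the lower C levels given above. This call was lost for 14 of the 16 arrays left out in turn, and was kept only without *gnat2* D replicate 2 or WT D replicate 1 (adjusted p up to 0.161). It was also lost with the replicate number as a block and without replicate 1 of every group. A test without moderation, a trended prior, array weights and a fit on the compared groups only ended it as well. For D minus HL 1 member (0.413%) was called, against 0.115% of all transcripts (0.0323% higher and 0.0827% lower in *gnat2*), and 43 had an unadjusted p under 0.05, against 9.05%. AT5G56100 spanned 2.09 more in *gnat2* than in WT (standard error 0.39, adjusted p = 0.0245), with HL levels of 0.95, 1.48, 1.80 and 1.39 in *gnat2*, against 2.73, 2.37, 1.86 and 2.13 in WT. That call was lost without *gnat2* D replicate 1, 3 or 4, *gnat2* HL replicate 1 or WT HL replicate 1 (adjusted p up to 0.0638). Its mean under HL lies below the array median in both genotypes.

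The members also varied together between replicates of the same group. The mean Pearson correlation between 2 members' deviations from their group means over the 24 arrays was 0.14, against 0.00018 over pairs of all transcripts. Quantile normalization gives every array the same mean over all transcripts, which by itself keeps the value over all pairs small. The mean correlation was 0.11 among the transcripts rising with light. In the 827 other transcripts higher by more than 1 in D it was 0.05, and in the 648 others lower by more than 1 in HL 0.04. Arrays with high members had low rising transcripts. In *gnat2* D replicate 1 the members lay 0.15 above and the rising transcripts -0.08 from their group means, in WT D replicate 1 0.19 and -0.14, in *gnat2* C replicate 1 0.17 and -0.15, and in WT C replicate 1 0.23 and -0.19. Replicate 1 was the highest for the members in all 4 groups of D and C, where 176 to 195 of the 242 lay above the group mean. The lowest were *gnat2* D replicate 2 with -0.14, WT D replicate 2 with -0.13, *gnat2* C replicate 4 with -0.21 and WT C replicate 4 with -0.13. Under HL the deviations stayed between -0.05 and 0.04. The part of this variation in the genotype differences was not tested by itself. Fits with the replicate number as a block and without replicate 1 of every group are given at the end.

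**Figure D5:**
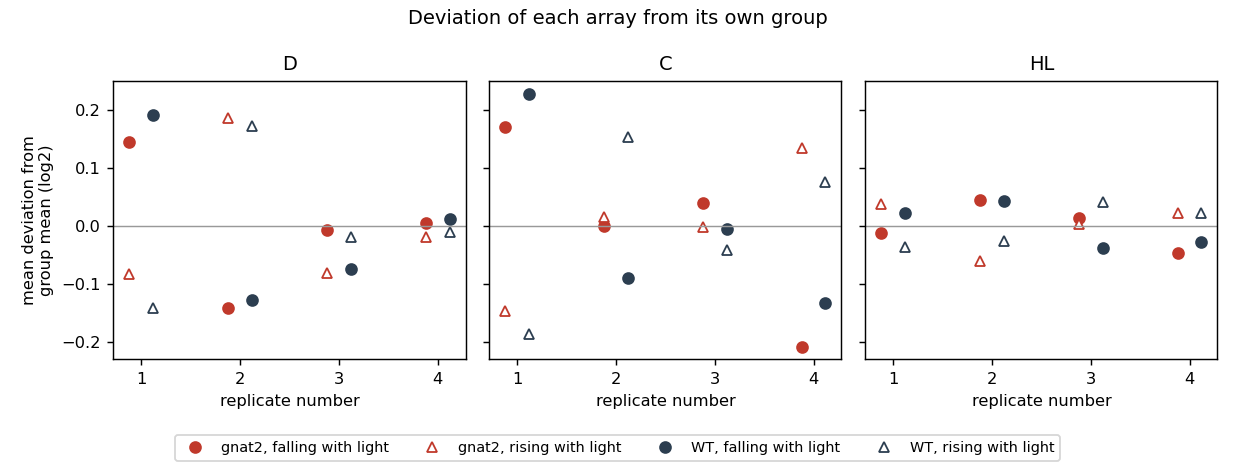
Mean deviation of each array from its own group mean (log2) for the 242 transcripts falling with light (circles) and the 179 rising with light (triangles), by light and replicate number, *gnat2* in red left of WT in dark blue. Replicate 1 is highest for the falling transcripts and lowest for the rising ones under D and C in both genotypes, and all values lie near 0 under HL.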

How the data were processed

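RNA of 24 rosette samples, 4 per genotype and light, was measured on Affymetrix AraGene-1_0-st arrays. The authors made the deposited log2 values with a custom chip definition (version 22, TAIR genes), RMA background correction and quantile normalization, which gives 1 value per transcript and array. Neither counts nor detection calls enter the files used here, so that the number of arrays limits the precision. The means, differences and calls were computed here in R 4.3.3 with limma 3.58.1 (lmFit, contrasts and eBayes), with 1 mean per group over all 24 arrays, 18 residual and 6.05 prior degrees of freedom, and Benjamini-Hochberg adjustment over all 27826 transcripts. The study's methods name a one-way ANOVA, and a fit of the same model without moderation was an alternative. The fit was tested on simulated data with noise drawn independently for each transcript and array, unlike the members, which vary together.

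Members and gene lists were chosen with earlier results of these data known, and roles, some families and the genes named for a role after their values were seen. Those families were the SnRK1 subunits, acyl-CoA oxidases, β-xylosidases, β-galactosidases, *ATG8*, type C J proteins, *TBL* genes, NF-Y subunits C and phloem proteins 2. Their shares of members follow from that choice, and nothing is read from them. Otherwise the text names the 15 members with the largest smaller step, the 10 with the widest difference between D and HL, each member called between genotypes, up to 4 members per family or list, those at the limits and chromosomal neighbours. Symbols come from RefSeq, matched by locus, for 27241 of the 27826 transcripts, and families were matched on symbols and synonyms. A motif count in promoters and a comparison of proteins were not run. The alternatives were other limits, medians, a loess normalization, array centring, a filter on low values, array weights, a trended prior, fits on the compared groups only, the replicate number as a block, and leaving out each array or replicate 1 of every group.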

Additional observations from a re-analysis of the deposited data

Results flagged for a closer look

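In 10 of 204 groups of 4 arrays tested (4.9%), taken over 33 members and the array means, the highest or lowest array stood apart from the other 3. Chance gives about 1 in 20. The value given is the gap to the nearest array as a share of the group's range. AT4G18205 in WT under D had 6.34 in replicate 1 beside 5.54 to 5.57 (0.963). AT3G62550 in *gnat2* had 9.12 in replicate 1 under D beside 8.67 to 8.70 (0.935) and 5.84 in replicate 4 under C beside 6.56 to 6.64 (0.901). AT4G27450 in *gnat2* had 7.91 in replicate 2 under D beside 9.08 to 9.17 (0.929) and 2.42 in replicate 1 under HL beside 1.84 to 1.91 (0.866). AT3G06070 in WT under D had 8.51 in replicate 2 beside 7.83 to 7.88 (0.926). *ALN* in *gnat2* under D had 7.64 in replicate 4 beside 7.16 to 7.21 (0.897). *UGT74F2* in *gnat2* under HL had 5.06 in replicate 3 beside 3.07 to 3.29 (0.889). *BZIP61* in *gnat2* under HL had 1.87 in replicate 1 beside 2.15 to 2.19 (0.877), and *DIN10* in *gnat2* under C had 3.08 in replicate 4 beside 3.78 to 3.89 (0.872).

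In 2 members the light response differed between the genotypes in limma, and both calls were lost under several alternatives. AT5G66790 rose in D by 1.18 more in *gnat2* than in WT (adjusted p = 0.0464), and AT5G56100 spanned 2.09 more between D and HL in *gnat2* than in WT (adjusted p = 0.0245).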

How the results depend on the processing

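No call among the members turned its direction under any alternative run. The rule took 242 members at limits of 1, 390 at limits of 0.8 and 89 at 1.5, and 237 to 250 with each array left out. Members called between *gnat2* and WT numbered 1 to 6 under D, 0 to 3 under C, 1 to 10 under HL and 21 to 34 on average with each array left out, against 4, 3, 7 and 29 over all arrays. For the response differences these ranges were 0 to 0 for HL minus C, 0 to 1 for D minus C and 0 to 3 for D minus HL. Under C the count of 0 came without *gnat2* replicate 4, under D the count of 1 without *gnat2* replicate 4, and under HL the counts of 1 without *gnat2* replicate 4 and without WT replicate 2.

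Without replicate 1 of every group, an alternative chosen after seeing the data, the calls were 0 under D, 1 under C, 0 under HL, 12 on average, and 0 for D minus C and for D minus HL. The 1 call under C was none of the 3 made over all arrays. Of the calls within a single light, 0 held under every alternative judged at an adjusted p under 0.05. Fits on the compared groups only called 2 under D, 0 under C, 1 under HL, and 0 for D minus C and for D minus HL. A trended, robust prior called 7 under D and 0 for D minus C, array weights 2 under D and 0 for D minus C, loess normalization 4 under HL, and the test without moderation 0 for D minus C and for D minus HL. With a difference above 1 also required, 2 were called under D and 0 under C, HL and on average. At an unadjusted p under 0.05 the counts were 39, 37, 52 and 65 in that order, and 20, 14 and 43 for HL minus C, D minus C and D minus HL. The causes of these moves were not tested. Apart from the unadjusted p, the share of all transcripts called was not counted for the alternatives or for the block below. The moves may be shared by all transcripts, so that nothing about the members is read from them.

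Same-numbered replicates had residual correlations of -0.01 to 0.24, with a mean of 0.08, against a mean of -0.03 between replicates of different numbers. Deviations cancel within each group, so that the second mean follows from the first and is no separate baseline. Not all same-numbered correlations were above 0.1, so that the main fit did not take the numbers to pair the samples. This limit does not show that the samples were unpaired, and the block was run as an alternative. With the replicate number as a block, 10 members were called under D, 4 under C, 10 under HL, 36 on average, 0 for HL minus C, 0 for D minus C and 1 for D minus HL. The block ended the calls of *BGAL1* under HL (adjusted p = 0.0584), *XYL4* on average (0.0582 in limma) and AT5G66790 for D minus C (0.0805), and no other. The arrays carry no detection calls, and the falls of 59 members end below the array median, where signal above background is not shown.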
